A study of Caenorhabditis elegans with 79 samples.

Results

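Small RNAs of gravid Caenorhabditis elegans adults carrying rde-1(ne300), an allele of the gene for the Argonaute RDE-1, were compared with those of the wild-type strain N2 while both strains were fed bacteria for RNAi against nrfl-1 and oma-1. The comparison took the 3 libraries of each strain at 72 h from the adult table, which makes 6 of the 79 libraries of the series. It covers every class of small RNA in that table, the endogenous ones as well as those made from the fed double-stranded RNA (dsRNA). The series asks how the dsRNA-binding protein RDE-4 takes part in loading siRNAs into Argonautes. The 3 rde-4(syb6665) adult libraries of the same table, also fed against nrfl-1 and oma-1, are given beside rde-1 where the mutants differ. Animals of all 3 adult groups were whole gravid hermaphrodites, grown at 20 °C from synchronised L1 larvae, and their RNA of about 16 to 30 nt was treated with RppH, which makes 22G-RNAs clonable. A separate set of libraries, for which no RppH treatment is given, of 3 inputs and 3 co-immunoprecipitates (co-IPs) of rde-1(cmp133[(GFP::3xFLAG)::rde-1]) adults under nrfl-1 RNAi served to ask which sequences are found with RDE-1. The labels do not say whether replicates came from separate cultures, so p-values measure the spread between these libraries.

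In exogenous RNAi the nuclease Dicer, together with RDE-4, cuts dsRNA into primary siRNAs that RDE-1 receives as duplexes. RDE-1 removes the passenger strand, and the guide strand leads it to matching transcripts. RNA-dependent RNA polymerases then copy the transcript into secondary siRNAs, the 22G-RNAs, which worm-specific Argonautes (WAGOs) bind. Primary siRNAs and endogenous Dicer products of the same kind are called 23H-RNAs in the table, 22G-RNAs are split by the Argonaute or primary siRNA they depend on (WAGO, CSR, ALG, ERGO, 23H), and 26G-RNAs are the primary siRNAs of the ERGO and ALG pathways. RDE-1 is also known to bind the miRNA miR-243, which directs 22G-RNA production from the transcript Y47H10A.5.

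The sequences on which the endogenous part of the comparison turned were 23H-RNAs of the dsRNA sources F43E2.6 and a snoRNA gene of clone Y57G11C. They are shown because each source gave the same 5′ end at several lengths, and the lengths moved differently between strains. F43E2.6 is a protein-coding gene on chromosome II at 7366455 to 7368861 on the minus strand, and the snoRNA gene (WBGene00220185) lies on chromosome IV at 14780839 to 14780933 on the plus strand, in the Ensembl annotation of WBcel235. Capitals mark the bases beyond position 22, counted from the 5′ end.
F43E2.6 strand a, 22 nt: tttgccgatgtttctgagatgt
F43E2.6 strand a, 23 nt: tttgccgatgtttctgagatgtC
F43E2.6 strand a, 24 nt: tttgccgatgtttctgagatgtCT
F43E2.6 strand b, 22 nt: catctcagaaacatcggcaaat
F43E2.6 strand b, 23 nt: catctcagaaacatcggcaaatG
Y57G11C snoRNA hairpin, 22 nt: agtggagtggatgacgacgacg
Y57G11C snoRNA hairpin, 23 nt: agtggagtggatgacgacgacgA
The 23-nt forms of strands a and b of F43E2.6 pair with each other over 21 bases and leave 2 unpaired bases at each 3′ end, the geometry of a Dicer product.

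The values are RPM, a read number scaled to a common library size. Inferred depth was 17.4 to 22.5 M reads per adult library, 3 reads corresponded to 0.133 to 0.172 RPM, and replicates of a strain correlated across features with r between 0.989 and 0.997. Of 25903 rows, 5450 reached a mean of 10 RPM over the 9 adult libraries and were tested with limma on log2(RPM + 1). A call is a Benjamini-Hochberg adjusted p under 0.05 over those 5450, and changes are differences on that log2 scale with their standard error (SE). The call was made for 15.5% of them between rde-1 and N2, 7.52% higher and 7.96% lower in the mutant. With libraries rescaled to equal miRNA totals the calls split into 177 higher and 619 lower, against 410 and 434 with the deposited values, and the median log2 change of all features moved from 0.01 to -0.06. Small RNA libraries do not measure rde-1 mRNA, so the genotype could not be read from it.

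The secondary siRNAs of both RNAi targets were nearly gone in rde-1 while their primary siRNAs had risen. nrfl-1 encodes a PDZ-domain scaffold protein related to mammalian NHERF, and oma-1 a zinc-finger protein that acts with oma-2 in oocyte maturation. The nrfl-1 22G-RNAs stood at 9779, 9633 and 9165 RPM in the N2 libraries and at 71.4, 46.9 and 55.8 RPM in the rde-1 libraries. The rde-1 level was thus 0.609% of the N2 level. oma-1 22G-RNAs were at 533, 507 and 547 RPM in N2 and at 13.81, 11.76 and 10.85 RPM in rde-1, which left 2.29%. No library of either strain came near the other strain. On the log2 scale the difference was -7.36 ± 0.11 (SE) for nrfl-1, with a limma adjusted p of 6.04e-11. It was -5.34 ± 0.09 (SE) for oma-1, with a limma adjusted p of 9.11e-11. For the primary siRNAs described next these values were 1.08 ± 0.09 (SE) and 1.5e-05 for nrfl-1, and 0.66 ± 0.12 (SE) and 0.0033 for oma-1.

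Primary 23H-RNAs of nrfl-1 were at 254, 264 and 268 RPM in N2 and at 489, 618 and 570 RPM in rde-1, a 2.13-fold higher mean. For oma-1 the N2 libraries held 13.22, 13.5 and 13.45 RPM and the rde-1 libraries 19.9, 23.6 and 22.1 RPM, a 1.63-fold higher mean. Again the strains did not overlap, and the rise of the primary siRNAs was far smaller than the fall of the secondary ones. In each N2 library there were 34.3 to 38.5 secondary per primary nrfl-1 reads, and 37.5 to 40.7 for oma-1. The ratio was 0.0759 to 0.146 for nrfl-1 and 0.491 to 0.694 for oma-1 in rde-1. For each ratio an exact permutation test (two-sided) gave p = 0.1, below which 3 against 3 libraries cannot go.

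The mutants differed at this step, and between them 30.5% of all features were called (22.3% higher and 8.24% lower in rde-4). In rde-4 the mean ratio was 7.31 ± 1.13 (SD, n = 3) for nrfl-1 and 3.15 ± 1.01 (SD, n = 3) for oma-1, above every rde-1 library. The nrfl-1 22G-RNAs were 3.61 ± 0.11 (SE) higher on the log2 scale in rde-4 than in rde-1, with a limma adjusted p of 1.03e-09. The oma-1 22G-RNAs, at 12.97 RPM in the rde-4 mean and 12.14 in the rde-1 mean, were not called different (0.09 ± 0.09 SE, limma adjusted p 0.475). Primary siRNAs were lower in rde-4 than in rde-1, by -2.49 for nrfl-1 and -2.11 for oma-1 on the log2 scale, with adjusted p of 3.22e-09 and 1.87e-07.

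**Figure D1:**
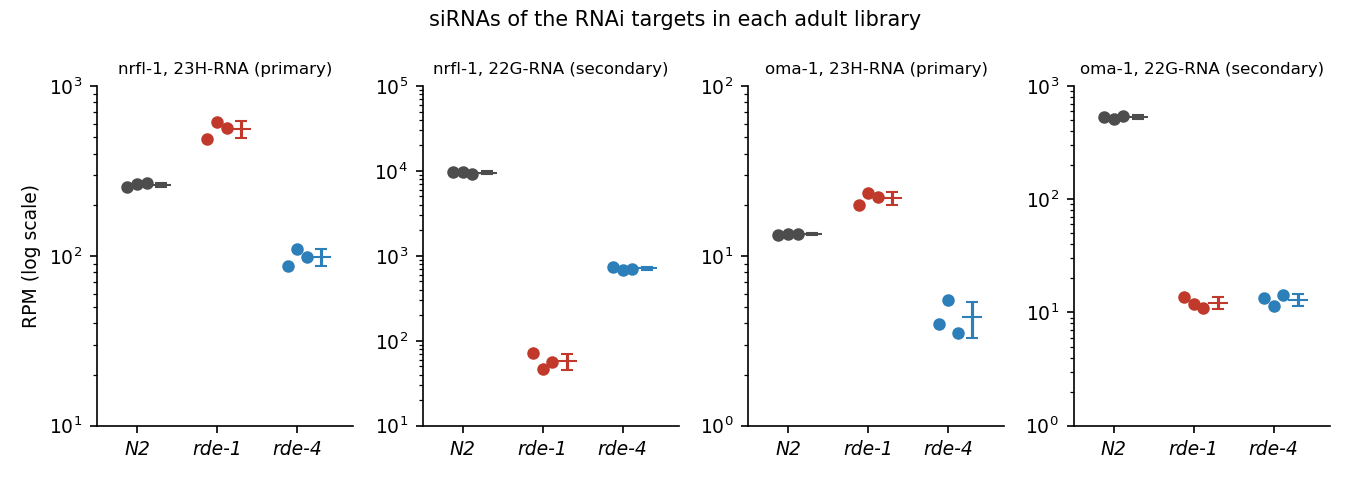
Primary (23H) and secondary (22G) siRNAs of nrfl-1 and oma-1 in RPM on log axes for the 3 N2, 3 rde-1 and 3 rde-4 adult libraries (points, with mean and SD beside them). In rde-1 the primary siRNAs sit above N2 and the secondary siRNAs between 46.9 and 71.4 RPM for nrfl-1, against 9165 RPM or more in N2.

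oma-1 also has 22G-RNAs outside its RNAi row, in a row that the table lists under both the ALG target and the CSR class with the same values. It fell from 159, 149 and 160 RPM in N2 to 5.39, 4.52 and 4.78 RPM in rde-1, a log2 change of -4.74 ± 0.09 (SE) with an adjusted p of 1.53e-10 in limma. How reads were divided between this row and the RNAi row is not given in the sources used here. Its 26G-RNA row was at 0.4 to 0.8 RPM in N2 and 0.09 to 0.28 RPM in rde-1, under the filter. The paralogue oma-2, which was not fed against, was at 13.2, 11.3 and 12.7 RPM in N2 and at 16.13, 14.01 and 12.94 RPM in rde-1. These overlap, and oma-2 was not called (log2 change 0.20 ± 0.10 SE, adjusted p 0.239 in limma). Of the 3 nearest protein-coding genes on each side of both targets, 3 had a tested 22G-RNA row, and none was called. They were C01F6.14 near nrfl-1 with a log2 change of 0.08, and spr-2 and rad-54.L2 near oma-1 with -0.01 and -0.01.

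miR-243-3p rose and the 22G-RNAs of its target disappeared. miR-243-3p was at 59.4, 52.7 and 58.0 RPM in N2 and at 135.8, 164.5 and 147.7 RPM in rde-1, with no overlap. Its log2 change was 1.38 ± 0.07 (SE), with an adjusted p of 2.48e-07 in limma. The other arm, miR-243-5p, was at 1.11 to 1.41 RPM in N2 and 2.06 to 2.79 RPM in rde-1, under the filter. 22G-RNAs of Y47H10A.5 (chromosome I at 12095482 to 12097987, minus strand) went from 520, 506 and 535 RPM in N2 to 2.54, 1.83 and 3.48 RPM in rde-1. That is a log2 change of -7.20 ± 0.21 (SE) with an adjusted p of 3.04e-09 in limma. The same 2 features stood at 123.4 ± 2.08 and 2.36 ± 1.02 RPM (SD, n = 3) in rde-4. In the co-IP set, miR-243-3p was at 77.2 ± 9.94 RPM in the inputs and 9772 ± 3541 RPM with GFP::RDE-1 (SD, n = 3), a log2 enrichment of 6.91 with an adjusted p of 1.46e-10 in limma. nrfl-1 23H-RNAs were at 576.2 ± 24.5 RPM in the same inputs and 32497 ± 2536 RPM in the co-IPs (SD, n = 3). At nrfl-1 and at this miRNA target alike, the small RNA found with RDE-1 was higher in the mutant and the 22G-RNAs were lower. The co-IP animals were not fed against oma-1, whose siRNAs could not be read there.

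The summed level of endogenous 23H-RNAs was higher in all 3 rde-1 libraries, and most of the difference came from 1 source. The sum was 318, 334 and 312 RPM in N2 and 491, 478 and 474 RPM in rde-1, a difference of 159.9 RPM between the means, of which F43E2.6 gave 107.7 RPM. Without F43E2.6 and the sequences assigned to the Y57G11C snoRNA hairpin alone, the sum was 122.5 ± 5.74 RPM in N2 and 136.4 ± 9.07 RPM in rde-1 (SD, n = 3), and the strains overlapped. The class took 0.0514 ± 0.0016% of the summed RPM in N2 and 0.0767 ± 0.0016% in rde-1 (SD, n = 3). An exact permutation test of that share (two-sided) gave p = 0.1, or 0.156 adjusted over the 14 classes, which does not pass. Of 1194 sequences, 723 had a level above 0 in these 6 libraries and 6 were tested, of which 4 were called higher and 0 lower in limma, with the same 4 at an unadjusted p under 0.05. The filter, a mean over all 9 adult libraries, shapes that count, since it kept the 24-nt form of F43E2.6 through its level in rde-1 and removed the 22-nt form of F43E2.6, which was low there. With no filter 39 sequences were called, 27 higher and 12 lower. In the co-IP set 53 of 54 tested 23H-RNAs were called higher with GFP::RDE-1 than in the input, against 21.3% of all 483 features tested there (59.8% were called lower and 81.2% in either direction), with a median log2 enrichment of 6.04. The filter there, a mean over 12 libraries with the co-IPs among them, shapes that count as well. It kept sequences through their co-IP level, such as the 22-nt form of F43E2.6 strand b (1.46 ± 0.285 RPM in inputs, 200.2 ± 60.3 RPM in co-IPs, SD, n = 3). The count therefore does not measure the share of 23H-RNAs found with RDE-1.

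By source, F43E2.6 23H-RNAs summed to 167, 176 and 154 RPM in N2 and to 271, 271 and 279 RPM in rde-1. Sequences assigned to the Y57G11C snoRNA hairpin alone gave 33.1, 36.5 and 28.6 RPM in N2 and 75.4, 68.4 and 69.4 RPM in rde-1, a 2.17-fold higher mean. For mir-5592 the sums were 39.9, 43.8 and 36.6 RPM in N2 and 50.2, 53.3 and 44.8 RPM in rde-1. None of these 3 sources overlapped between strains. The 5 sources in ribosomal RNA genes did overlap, with the most abundant at 14.2 to 22.8 RPM in N2 and 18.5 to 18.7 RPM in rde-1. Of the 20 sources with at least 1 RPM, PALTA3 was also higher without overlap, and T05E12.10 and F52G3.8 were lower without overlap, all 3 below 3 RPM. That makes 4 of 20 higher (20%, beside 19.1% of all tested features) and 2 lower (10%, beside 14.1%). The smallest exact permutation p was 0.1, or 0.333 adjusted over the 20 sources. In rde-4 the F43E2.6 sum was 7.18 ± 2.84 RPM (SD, n = 3). That of the sequences of the Y57G11C snoRNA hairpin alone was 37.1 ± 3.198 RPM, against 32.7 ± 3.99 RPM in N2. The sequences shared with Y57G11C.51 were at 6.91 ± 1.33 RPM in rde-4, below their N2 level.

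At F43E2.6 the difference was uneven over lengths. The 22-nt form of F43E2.6 strand a, printed above, was at 24.7, 26.1 and 17.1 RPM in N2 and at 3.22, 2.06 and 3.53 RPM in rde-1. The 23-nt form with the same 5′ end was at 100.3, 104.8 and 84.3 RPM in N2 and at 133.0, 134.2 and 149.2 RPM in rde-1. The 24-nt form was at 7.01, 8.51 and 7.63 RPM in N2 and at 45.5, 46.4 and 47.5 RPM in rde-1. Within a single 5′ end, therefore, the shortest of the 3 fell 7.70-fold and the longest rose 6.02-fold, and no library of either strain overlapped at any of these lengths. The 24-nt form had a log2 change of 2.45 ± 0.17 (SE) and an adjusted p of 3.88e-06 in limma. It passed the filter only through its level in rde-1, with means of 7.72 RPM in N2 and 0.45 RPM in rde-4. With no filter its adjusted p was 2.58e-05 in limma. The 23-nt form was not called (0.52 ± 0.24 SE, adjusted p 0.184 in limma). The 22-nt form fell below the filter, and with no filter its log2 change was -2.58 ± 0.21 (SE) with an adjusted p of 6.12e-05 in limma. A 21-nt form was at 1.56 to 3.02 RPM in N2 and 0.24 to 0.28 RPM in rde-1.

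Strand b, which pairs with strand a, was higher in rde-1 at 21, 22 and 23 nt. Its 23-nt form was at 17.0, 15.9 and 24.3 RPM in N2 and at 51.8, 54.5 and 44.3 RPM in rde-1. The log2 change was 1.37 ± 0.17 (SE), with an adjusted p of 2.52e-04 in limma. Its 22-nt form was at 0.09 to 0.9 RPM in N2, which is within a few reads of 0 in 1 library, and at 3.99 to 5.82 RPM in rde-1 (with no filter, log2 change 2.02 ± 0.22 SE, limma adjusted p 3.68e-04). Unlike in strand a, the shorter forms of strand b rose more in the means, 5.68-fold at 21 nt and 10.4-fold at 22 nt against 2.63-fold at 23 nt. Of its 22-nt and 23-nt forms together, the 23-nt form made up 97.8% in N2 and 91.2% in rde-1 (means of 3), without overlap. Over all its lengths, strand b came to 12.9%, 11.7% and 23.1% of strand a in the N2 libraries and to 32.6%, 33.1% and 25.1% in the rde-1 libraries. These shares do not overlap, though N2 replicate 3 lies near the lowest rde-1 library.

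At the Y57G11C snoRNA hairpin a 23-nt form was higher in rde-1, while the 22-nt form with the same 5′ end was little changed. The 22-nt form, whose sequence the table also assigns to Y57G11C.51, was at 12.4, 14.8 and 9.54 RPM in N2 and at 11.7, 11.3 and 9.09 RPM in rde-1. The 23-nt form was at 14.9, 18.6 and 11.8 RPM in N2 and at 55.9, 49.0 and 50.8 RPM in rde-1. The first overlapped between strains. The second had a log2 change of 1.73 ± 0.14 (SE) with an adjusted p of 8.85e-06 in limma, and was also high in rde-4, at 31.7 ± 3.54 RPM (SD, n = 3). The most abundant mir-5592 sequence, of 23 nt, was at 17.9 to 22.4 RPM in N2 and 24.03 to 32.17 RPM in rde-1 (log2 change 0.45 ± 0.12 SE, adjusted p 0.0258 in limma). That call was lost without N2 replicate 1 or 3, or rde-1 replicate 1 or 2, with limma adjusted p between 0.0508 and 0.109, and with equal miRNA totals (0.0507).

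**Figure D2:**
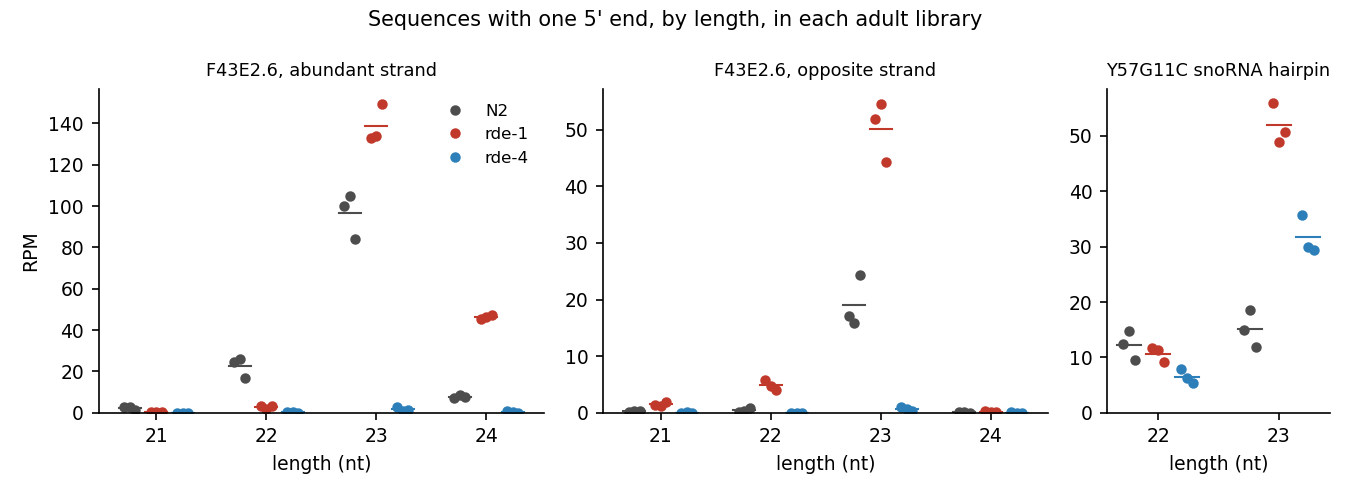
Levels in RPM of sequences sharing a 5′ end, by length, for both F43E2.6 strands (strand a on the left, strand b in the middle) and the Y57G11C snoRNA hairpin (points are libraries, lines are means of 3, colours are strains). For the abundant F43E2.6 strand the 22-nt form is higher in N2 and the 24-nt form higher in rde-1, where all 3 libraries lie between 45.5 and 47.5 RPM.

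Over all 1194 listed 23H-RNAs, 24-nt sequences made up 3.00%, 3.58% and 3.44% of the level in N2 and 10.5%, 11.1% and 11.2% in rde-1. The 24-nt form of F43E2.6 strand a carried most of this, and without it the share was 0.965 ± 0.132% in N2 and 1.42 ± 0.149% in rde-1 (SD, n = 3). The 22-nt sequences made up 29.9% to 30.4% in N2 and 16.4% to 18.2% in rde-1. The level-weighted mean length was 22.54 ± 0.02 nt in N2 and 22.82 ± 0.01 nt in rde-1 (SD, n = 3). By source it was 22.82 ± 0.02 against 23.09 ± 0.004 nt for F43E2.6 and 22.44 ± 0.01 against 22.77 ± 0.02 nt for the Y57G11C snoRNA hairpin. For mir-5592 it was 22.49 ± 0.05 against 22.65 ± 0.01 nt. 23H-RNAs of ribosomal RNA had 21.72 ± 0.06 nt in N2 and 21.76 ± 0.05 nt in rde-1, less apart than the spread between replicates. In rde-4 the mean length was 22.51 ± 0.09 nt for F43E2.6, below both other strains, while at 22.76 ± 0.02 nt for the Y57G11C snoRNA hairpin and 22.65 ± 0.03 nt for mir-5592 it lay within the spread of rde-1 (SD, n = 3). These lengths were looked at after their values had been seen, and no test was made of them. Only listed sequences enter, and the table lists 85 of 24 nt, against 415 of 22 nt and 523 of 23 nt.

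Of 40 pairs of listed sequences that differ by 1 base at the 3′ end and together have at least 1 RPM, the share of the longer member was higher in all 3 rde-1 than in all 3 N2 libraries for 13, lower for 4 and overlapping for 23. Pairs of a source share sequences and are not independent. For comparison, 19.1% of all tested features had levels with all 3 rde-1 libraries above all 3 N2 libraries, and 14.1% below. F43E2.6 gave 6 of the 13, the Y57G11C snoRNA hairpin 4 and mir-5592 3, and the 3 pairs in ribosomal RNA all overlapped. The 4 pairs that went the other way came from F43E2.6 (2) and the Y57G11C snoRNA hairpin (2), so neither source moved in 1 direction only.

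The length of what GFP::RDE-1 bound can be set beside this. In the co-IP set the 24-nt form of F43E2.6 strand a rose from 20.7 ± 2.31 RPM in the input to 1316 ± 223 RPM in the co-IP, and the 22-nt form from 37.9 ± 13.5 to 12118 ± 4019 RPM (SD, n = 3). The log2 enrichments were 5.92 ± 0.32 (SE) for 24 nt, 7.93 ± 0.29 (SE) for 23 nt and 8.30 ± 0.43 (SE) for 22 nt, each called in limma with adjusted p up to 1.4e-09. Of all F43E2.6 23H-RNAs, 24-nt sequences were 10.7%, 7.06% and 8.42% of the level in the inputs and 3.99%, 2.40% and 2.36% in the co-IPs. In all 3 co-IPs the 24-nt share of this source was below that in all 3 inputs, and its mean length went from 22.83 ± 0.03 nt in the inputs to 22.77 ± 0.01 nt in the co-IPs (SD, n = 3). Mean length was longer in the co-IPs for the Y57G11C snoRNA hairpin (22.38 ± 0.02 against 22.61 ± 0.005 nt), mir-5592 (22.33 ± 0.03 against 22.90 ± 0.04 nt) and ribosomal RNA (21.84 ± 0.08 against 22.39 ± 0.01 nt). Over all 23H-RNAs it was 22.55 ± 0.03 nt in the inputs and 22.77 ± 0.02 nt in the co-IPs. For the Y57G11C snoRNA hairpin the 22-nt and 23-nt forms had log2 enrichments of 8.24 ± 0.36 (SE) and 8.05 ± 0.59 (SE), less apart than either SE. The difference in enrichment between lengths was not tested.

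22G-RNAs of both loci described above were low in rde-1. The 22G-RNA row of F43E2.6 was at 22.97, 20.07 and 18.39 RPM in N2 and 1.99, 1.63 and 2.92 RPM in rde-1. It did not pass the filter, since it was low in both mutants, and with no filter its log2 change was -2.77 ± 0.16 (SE) with an adjusted p of 5.71e-06 in limma. For the Y57G11C snoRNA gene the 22G-RNAs were at 159, 156 and 135 RPM in N2 and 14.9, 17.0 and 14.6 RPM in rde-1, a log2 change of -3.19 ± 0.08 (SE) with a limma adjusted p of 6.54e-10. The pseudogene Y57G11C.57, which lies next to it on the opposite strand at 14780940 to 14781266, fell from 81.3, 82.6 and 79.0 to 18.1, 18.3 and 19.0 RPM (log2 change -2.07 ± 0.05 SE, limma adjusted p 1.37e-09).

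Y57G11C.51, which shares a 23H-RNA sequence with the hairpin and lies at 14773592 to 14774554 on the minus strand, fell from 183.2 ± 12.5 to 78.1 ± 1.32 RPM (SD, n = 3; log2 change -1.22 ± 0.07 SE, adjusted p 6.49e-07 in limma). Y57G11C.36, at 14771415 to 14773781 on the same strand, fell from 38.7 ± 3.33 to 17.6 ± 0.81 RPM in its ALG target row (log2 change -1.09). The 26G-RNAs of Y57G11C.36 did not follow, at 11.1 to 17.8 RPM in N2 and 16.0 to 17.5 RPM in rde-1 (adjusted p 0.265). The other 5 genes with tested rows within 20 kb of the snoRNA gene (vti-1, mrps-7, Y57G11C.9, gdi-1 and coq-3) had log2 changes between -0.11 and 0.09 and none was called. Neighbouring and overlapping genes can share reads, and the counting of such reads is not given in the sources used here.

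Beyond these loci, the called 22G-RNAs of 23H targets went in both directions and by less. Of 36 rows of the class 30 were tested, the 3 Y57G11C rows among them. Of the other 27, 3 were called higher (11.1%, beside 7.52% of all features) and 4 lower (14.8%, beside 7.96%), and their median log2 change was -0.10, beside 0.01 over all features. Higher were Y37E11B.2 (355.8 ± 14.6 to 467.2 ± 0.934 RPM), Y59H11AR.6 (176.1 ± 6.75 to 227.7 ± 5.62 RPM) and jmjc-1, which encodes a JmjC-domain protein (278.6 ± 8.38 to 347.3 ± 1.92 RPM; SD, n = 3 for each). Their log2 changes were 0.39, 0.37 and 0.32. The call of Y37E11B.2 was lost without N2 replicate 2 or any 1 rde-1 replicate (limma adjusted p 0.0604 to 0.0695) and with equal miRNA totals (0.0862). Lower were Y17D7C.3, E01G4.5, Y116A8B.1 and F52G3.8, with log2 changes of -0.69, -0.45, -0.39 and -0.20. Y17D7C.3, E01G4.5 and Y116A8B.1 are also listed as ERGO targets with the same values. They are counted again among the ERGO target rows called lower below, so the counts of the 2 classes are not separate. Y37E11B.2, E01G4.5 and F52G3.8 stood at 467.2, 157.6 and 103.2 RPM in rde-1 and at 14.9, 5.24 and 2.96 RPM in rde-4. The contrasts of rde-4 with rde-1 for these rows were -4.89, -4.68 and -4.72 on the log2 scale, with adjusted p of 4.96e-11, 1.39e-10 and 8.64e-13 in limma.

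The ERGO pathway, in which 26G-RNAs of the Argonaute ERGO-1 give rise to 22G-RNAs, had called rows in both directions. ERGO class 26G-RNAs summed to 569, 590 and 575 RPM in N2 and 471, 517 and 520 RPM in rde-1, lower in all 3 libraries (exact permutation p = 0.1, adjusted 0.156). In rde-4 their sum was 29.1 ± 2.01 RPM (SD, n = 3). Of 7 tested 26G rows, 1 was called, Y17D7C.3, a pseudogene, at 117, 114 and 103 RPM in N2 and 72.4, 73.0 and 84.7 RPM in rde-1. Its 22G-RNAs fell with it, from 386.6 ± 41.1 to 238.8 ± 10.97 RPM (SD, n = 3). Of 59 tested ERGO target 22G rows 6 were called higher (10.2%, beside 7.52% of all features) and 12 lower (20.3%, beside 7.96%), with a median log2 change of 0.02. The largest rise among them was of ZK380.5 (28.1 ± 0.177 to 40.9 ± 2.66 RPM), and eri-6, part of a helicase gene of this pathway and the most abundant row, fell by 0.10 on the log2 scale (1029 ± 18.6 to 962.5 ± 3.75 RPM). The eri-6 call was lost on leaving out any 1 of the 6 libraries (limma adjusted p 0.0666 to 0.14).

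WAGO class 22G-RNAs held most of the calls. Of 1740 tested rows, 300 were called higher and 347 lower, 37.2% in all, while the sum of the class was 243633 ± 2556 RPM in N2 and 245538 ± 2177 RPM in rde-1 (SD, n = 3). Changes among the called rows were small, with medians of 0.29 for those higher and -0.37 for those lower on the log2 scale, and 8 and 27 rows passed 2-fold. In the CSR class, which the Argonaute CSR-1 binds against germline-expressed genes, 70 of 2694 rows were called higher and 32 lower, 3.79% in all, beside 15.5% of all features. That total of 102 fell to between 52 and 66 without any 1 library other than N2 replicate 3 (52, 60, 57, 59 and 66 without N2 replicates 1 and 2 and rde-1 replicates 1, 2 and 3), and was 145 without N2 replicate 3. ALG target rows had 11 higher and 23 lower of 303. Of 498 tested piRNAs 0 were called higher and 3 lower in limma, with 44 at an unadjusted p under 0.05 in either direction, and their sums ranged from 22194 to 31417 RPM among the N2 libraries alone. Without N2 replicate 3 the number called was 118, without rde-1 replicate 2 it was 0, without N2 replicate 1 or 2 or rde-1 replicate 1 it was 1, and with equal miRNA totals it was 13.

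**Figure D3:**
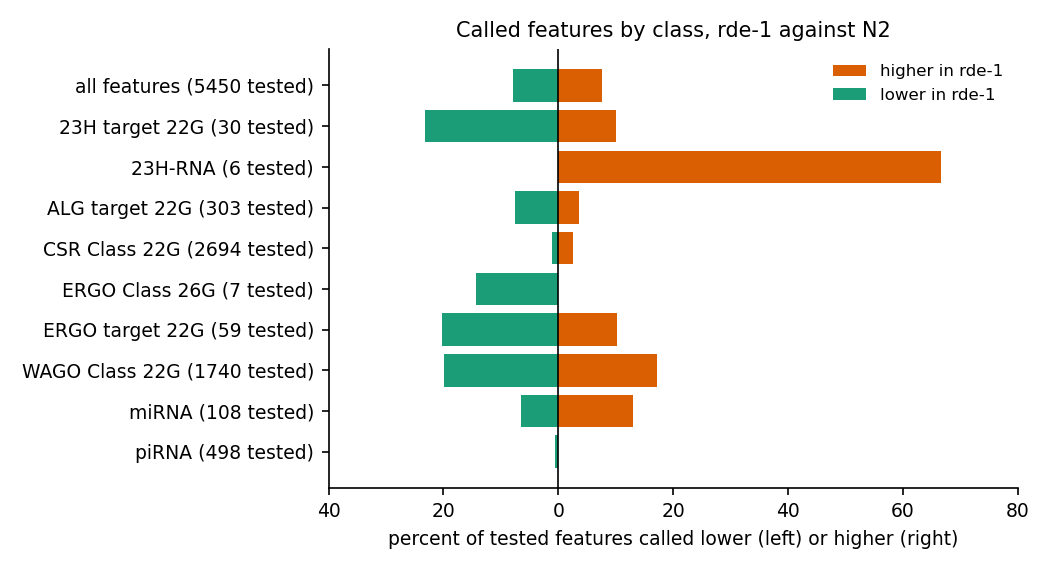
Percent of tested features called lower (left) or higher (right) in rde-1 against N2, for classes with at least 5 tested features. The WAGO class reaches 17.2% higher and 19.9% lower, the CSR class 2.60% and 1.19%, and 4 of the 6 tested 23H-RNAs are called higher.

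Outside the RNAi rows, 41 genes had called 22G-RNA rows past 2-fold, 9 higher and 32 lower. The filter, a mean that includes the rde-4 libraries, shapes these counts. It kept T05G5.4 through an rde-4 mean of 73.6 RPM, beside N2 and rde-1 means of 7.24 and 2.99 RPM. It removed the 22G-RNA row of F43E2.6, whose mean fell from 20.5 to 2.18 RPM and was 3.27 RPM in rde-4. Among the falls, pod-2, which encodes acetyl-CoA carboxylase, went from 241, 254 and 279 RPM in N2 to 54.6, 53.2 and 54.0 RPM in rde-1 (log2 change -2.23 ± 0.05 SE, adjusted p 6.54e-10 in limma). It stood at 61.7 ± 1.99 RPM in rde-4 (SD, n = 3), low in both mutants, as were Y47H10A.5, the oma-1 row and the Y57G11C rows. Both mutants are set against the same N2 libraries. kal-1, the homologue of human anosmin, fell from 25.8, 27.3 and 23.1 to 7.65, 6.18 and 7.83 RPM (log2 change -1.68 ± 0.09 SE), and was at 37.9 ± 0.575 RPM in rde-4. asah-1, an acid ceramidase gene, fell from 15.6, 18.5 and 14.6 to 4.30, 4.21 and 4.59 RPM (-1.68 ± 0.08 SE) and was at 71.9 ± 2.56 RPM in rde-4. W03C9.1 fell from 48.0, 45.0 and 42.4 to 14.8, 14.6 and 13.4 RPM (-1.60 ± 0.06 SE) and was at 68.3 ± 1.60 RPM in rde-4. For kal-1, asah-1 and W03C9.1 the adjusted p in limma was 4.29e-07, 2.86e-07 and 2.25e-08.

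The rest of the falls past 2-fold included abundant rows and genes of known function. F15D4.5 went from 1196 ± 58.1 to 470.3 ± 19.3 RPM and T23B12.10 from 765.7 ± 71.3 to 287.9 ± 10.2 RPM (SD, n = 3). hlh-30, which encodes the worm TFEB transcription factor, went from 68.9 ± 4.26 to 27.9 ± 3.08 RPM, and daf-7, which encodes a TGF-beta ligand, from 20.4 ± 1.51 to 7.97 ± 1.74 RPM. haf-4, an ABC transporter gene, went from 186.6 to 87.1 RPM in the means. All 3 libraries of rde-1 lay below all 3 of N2 for each, which largely follows from choosing called rows past 2-fold.

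The rises past 2-fold had a median level of 24.7 RPM in N2 and 75.9 RPM in rde-1. For the falls the medians were 66.6 RPM in N2 and 16.5 RPM in rde-1. Choosing rows by fold change and a mean filter shapes both orders, so they do not tell which rows are more abundant. C07G3.8 (chromosome V at 3498103 to 3502138, minus strand) went from 22.2, 19.36 and 22.99 RPM in N2 to 81.9, 85.6 and 85.0 RPM in rde-1, a log2 change of 1.92 ± 0.06 (SE) with an adjusted p of 7.94e-09 in limma. madf-9, a MADF-domain gene, went from 45.3, 50.6 and 44.8 to 147.6, 146.1 and 141.4 RPM (1.61 ± 0.05 SE, adjusted p 8.11e-09). ZK228.2 went from 118, 115 and 117 to 345, 336 and 347 RPM (1.55 ± 0.04 SE, adjusted p 6.54e-10). retr-1, the only CSR class row to rise past 2-fold, went from 157, 163 and 163 to 449, 456 and 457 RPM (1.49 ± 0.04 SE, adjusted p 7.94e-10). pals-1 went from 14.3, 18.1 and 16.4 to 46.0, 43.4 and 48.7 RPM (1.45 ± 0.09 SE, adjusted p 1.09e-06). In rde-4, madf-9 was also high at 125.4 ± 5.335 RPM, while C07G3.8, ZK228.2, retr-1 and pals-1 were at 25.5 ± 0.180, 123.6 ± 5.12, 175.0 ± 7.70 and 13.8 ± 0.954 RPM (SD, n = 3). tln-1 (talin), eat-16 (an RGS protein), F41G4.5 and W03F11.5 made up the other 4. The rows past 2-fold were chosen by their rde-1 level, so their differences between rde-4 and rde-1 are given as values only.

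**Figure D4:**
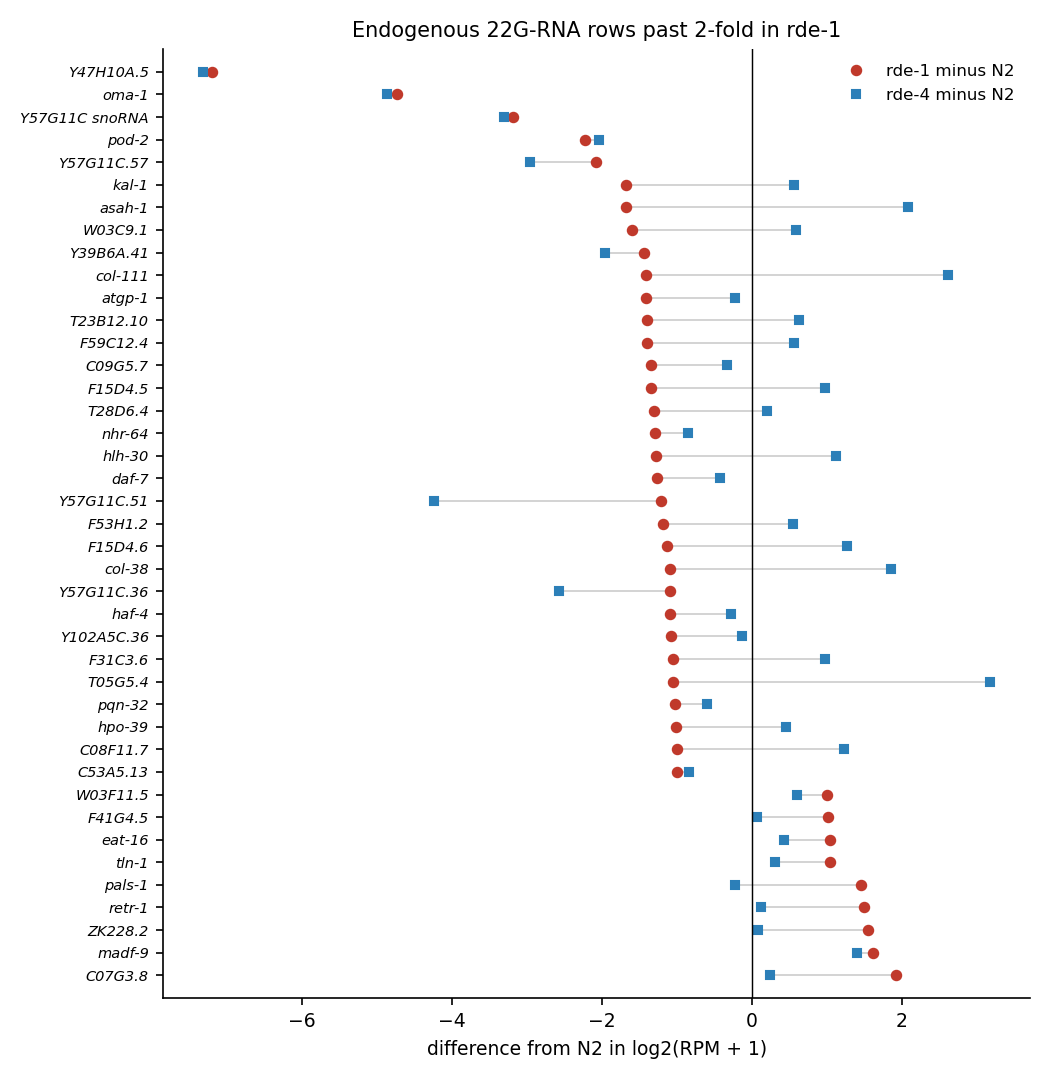
Difference from N2 in log2(RPM + 1) of the 41 endogenous 22G-RNA rows past 2-fold in rde-1, with rde-1 as circles and rde-4 as squares, both against the same 3 N2 libraries. Rows such as Y47H10A.5, oma-1 and pod-2 have both symbols together on the left, while kal-1, asah-1 and col-111 have them on opposite sides of 0. Rows high in rde-4 passed the filter more easily, since its mean includes the rde-4 libraries.

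The lists of genes by function were chosen with earlier results of these data known. For RNAi machinery, 27 of 29 genes with a 22G-RNA row were tested, with 1 called higher and 3 lower (14.8%, beside 15.5% of all features). All 4 changed by under 0.25 on the log2 scale, and the number called was 1 without N2 replicate 1 or 2 or rde-1 replicate 2 or 3, and 2 without rde-1 replicate 1. The row of rde-1 itself went from 48.8, 52.0 and 51.2 to 44.9, 42.5 and 41.3 RPM (-0.23 ± 0.05 SE, adjusted p 0.0057 in limma). dcr-1, the Dicer gene, went from 48.7, 49.7 and 53.9 to 57.6, 56.4 and 56.9 RPM (0.16 ± 0.04 SE, adjusted p 0.0303), a call lost with equal miRNA totals (0.09, adjusted p 0.347) and without either of N2 replicates 1 and 2 or any rde-1 replicate (limma adjusted p 0.0734 to 0.117). rde-4 has no row in the table. Of 13 tested Argonaute genes, prg-1, which encodes the piRNA Argonaute, was called higher (0.14) and ppw-1 and rde-1 lower (-0.19 and -0.23), and only 1 of the 3 calls was made without N2 replicate 1 or rde-1 replicate 2. prg-1 lost its call without N2 replicate 1 or 2 or rde-1 replicate 2 or 3 (limma adjusted p 0.0671 to 0.119), and with equal miRNA totals (0.404).

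Of 14 germ granule genes and 8 nuclear RNAi genes tested, 0 were called in limma, with 0 and 1 at an unadjusted p under 0.05, and 1 germ granule gene was called without N2 replicate 3. All 4 called collagen genes, of 8 tested, were lower, beside 7.96% of all features: col-111 from 25.9 ± 1.44 to 9.10 ± 0.667 RPM, col-38 from 13.9 ± 1.23 to 5.997 ± 0.795, col-60 from 19.0 ± 0.390 to 14.2 ± 1.14 and col-71 from 264.0 ± 3.66 to 206.5 ± 3.302 RPM (SD, n = 3). These 4 are rows of the WAGO class, of which 19.9% were called lower. col-111 was at 163.6 ± 5.39 RPM in rde-4. col-38 was at 52.9 ± 1.90 RPM in rde-4 and passed the filter only through that level. In the list of antiviral and intracellular pathogen response genes 7 were tested, and pals-1 and pals-18 were called higher and eri-6 lower, beside 15.5% of all features called, and 1 of the 3 calls was made without N2 replicate 1 or 2 or rde-1 replicate 1 or 2. Among histone genes his-24 was higher (0.14) and his-37 lower (-0.32) of 9 tested, and the his-24 call was lost on leaving out any 1 library (limma adjusted p 0.0541 to 0.126), which left 1 histone gene called. spe-47 was higher (0.34) and spe-41 lower (-0.32) of 5 tested genes of sperm, the latter not without N2 replicate 2 (limma adjusted p 0.0534). The vitellogenin genes had 2 rows, both under the filter, and no transposon row was found by name.

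miRNAs took a larger share of the libraries in rde-1, at 32.5 ± 0.24% of summed RPM in N2 and 34.2 ± 0.49% in rde-1 (SD, n = 3; exact permutation p = 0.1, adjusted 0.156). Of 108 tested miRNAs, 14 were called higher (13.0%, beside 7.52% of all features) and 7 lower (6.48%, beside 7.96%). That is 21 in all (19.4%, beside 15.5%), and 9 to 30 with 1 library left out (9 without rde-1 replicate 2, 11 without rde-1 replicate 3, 12 without N2 replicate 2). Besides miR-243-3p, the higher ones included miR-86-5p (124.6 ± 29.6 to 185.8 ± 11.6 RPM), miR-237-5p (736.0 ± 26.1 to 950.7 ± 46.3 RPM) and miR-228-5p (1589 ± 77.3 to 1893 ± 15.9 RPM; SD, n = 3 for each). Their log2 changes were 0.60, 0.37 and 0.25. Of these 3, only miR-228-5p was called higher in the GFP::RDE-1 co-IP than in the input, with a log2 enrichment of 0.73, and miR-86-5p was depleted there by -2.78. Among the miRNAs called higher in rde-1, the largest enrichment after that of miR-243-3p was 1.36, of miR-62.

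Of the 7 lower miRNAs, 5 were strands of the mir-35 family, which is abundant in oocytes and embryos. miR-39-5p fell from 128.0, 140.4 and 123.2 to 92.6, 92.7 and 101.7 RPM (-0.44 ± 0.08 SE, adjusted p 0.00289 in limma). miR-40-5p, miR-41-5p, miR-38-3p and miR-37-3p fell by 0.42, 0.25, 0.30 and 0.22 on the log2 scale, and the other two, miR-74-5p and miR-44-5p, by 0.44 and 0.38. miR-38-3p was not called without N2 replicate 2 or rde-1 replicate 2 or 3, and miR-37-3p without N2 replicate 1 or 2 or rde-1 replicate 1 or 2. The 8 guide strands miR-35-3p to miR-42-3p summed to 28700 to 30915 RPM in N2 and 26057 to 26962 RPM in rde-1, with 2 of 8 called lower. Each of these 8 was called lower in rde-4 than in rde-1 in limma, beside 8.24% of all features. miR-35-3p was at 12638 ± 99.5 RPM in N2, 11737 ± 203 RPM in rde-1 and 4200 ± 196 RPM in rde-4 (SD, n = 3). In rde-1 the mir-51 family went the other way, at 32921 to 35653 RPM in N2 and 36151 to 39427 RPM in rde-1. Of its 7 tested strands only miR-54-3p was called higher. That call was lost with equal miRNA totals (limma adjusted p 0.146), with no filter (0.0646) and in 1 fit with a library left out (0.0895). Fewer embryos in the animals and less of the mir-35 family per embryo cannot be told apart in whole worms. Their part in the other differences between the strains was not tested.

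Other stage and tissue miRNAs moved little. lin-4-5p was at 656.7 ± 104.2 and 651.2 ± 8.77 RPM, and the muscle miRNA miR-1-3p at 6782 ± 651 and 6633 ± 338 RPM (SD, n = 3), and neither was called. let-7-5p and its relatives miR-48-5p, miR-84-5p and miR-241-5p with lin-4-5p summed to 13252 to 15075 RPM in N2 and 15375 to 15837 RPM in rde-1, with miR-241-5p of the 5 called higher, a call lost without any library but N2 replicate 3 (limma adjusted p 0.0538 to 0.122). Of the gut miRNAs, miR-60-3p and miR-240-3p were not called, so miR-243-3p stood alone among the 3. Of 5 neuronal miRNAs 2 were tested and neither was called, and miR-124-3p was at 1.57 ± 0.451 and 1.24 ± 0.130 RPM.

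26G-RNAs of the ALG class, which are made during spermatogenesis, were higher in sum. They came to 43.8, 41.4 and 50.1 RPM in N2 and 75.2, 88.9 and 92.4 RPM in rde-1, with no overlap, and to 32.6 ± 2.47 RPM in rde-4 (SD, n = 3). Of 1399 rows only Y57G11C.36 passed the filter. Without it the class sum was 31.1 ± 7.70 RPM in N2 and 68.6 ± 8.31 RPM in rde-1, spread over 1140 rows above 0 of which the highest had a mean of 0.492 RPM. For the share of the class the exact permutation p was 0.1, or 0.156 adjusted. With no filter 19 rows of the class were called in limma, 18 higher and 1 lower.

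Called 22G-RNA rows were spread over the genome. Counting each gene once, 12.3% to 19.4% of tested genes were called on each of the 5 autosomes and 38.9% on the X chromosome, while 186 genes were not located. Within the WAGO class the share on X was 41.5%, inside the range of 31.2% to 44.7% on the autosomes, and the CSR class had 21 tested rows on X against 393 to 658 on each autosome. On chromosome V, which carries rde-1 at 9987916 to 9991642, 13.8% of 159 genes within 2 Mb of it were called, 12.5% of 144 at 2 to 4 Mb, 15.6% of 135 at 4 to 6 Mb and 29.5% of 241 at 6 to 12 Mb. The share of called genes was highest in the window farthest from rde-1. These windows were not split by class, so the shares do not separate distance from rde-1 and the mix of classes.

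**Figure D5:**
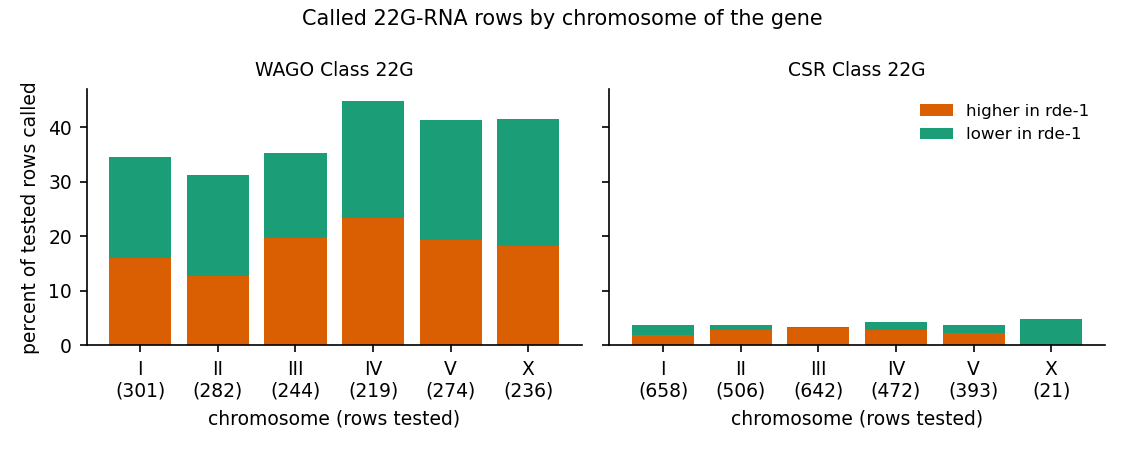
Percent of tested WAGO class and CSR class 22G-RNA rows called higher or lower in rde-1 against N2, stacked, by chromosome of the gene, with the number of rows tested in parentheses. WAGO rows lie between 31.2% and 44.7% on every chromosome and CSR rows below 5%.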

How the data were processed

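Values are the authors' deposited RPM, given to 2 decimals. That unit was read from the values, since aligner, annotation and build are not given in the sources used here. Low piRNA values (below 1 RPM) are whole multiples of 1 read to within 0.0051 RPM (99.3% to 99.5%) but 22G-RNA values are not (66.0% to 70.0%, against 17.8% to 23.0% by chance), so no count model was used. limma 3.58.1 in R 4.3.3 was run on log2(RPM + 1) with a mean-variance trend, over rows averaging 10 RPM or more, with all 9 adult libraries in 1 fit, with Benjamini-Hochberg adjustment. Adding 1 RPM understates changes of low rows. Rows of a gene listed in several classes were kept. In data simulated for rde-1 against N2 (5450 features, 200 changed), 100% of log2 changes of 1 and 99% of 0.5 were recovered, with 6 false calls. The simulated features varied independently, with the same added noise for every feature, so these figures do not describe the real libraries. Exact permutation tests used scipy 1.17.1. The co-IP set (12 libraries, for which no RppH treatment is given) was fitted alike and read for 23H-RNAs and miRNAs. Input and co-IP numbers pair by the correlation of their deviations (0.493, 0.289 and 0.285), not by the labels. Adult numbers do not. Columns were matched by name, and gene positions come from the Ensembl annotation, which located 24047 of 24270 rows with a gene ID.

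Named genes are the RNAi targets, oma-2, rde-1, dcr-1, miR-243 and Y47H10A.5, the most abundant and the most changed rows per class, the 10 largest rises and falls, the 6 most abundant 23H-RNAs, list extremes and marker miRNAs. Genes past 2-fold beyond these and the 23H-RNA lengths were chosen after their values were seen. The comparison and the lists were chosen with earlier results of these data known. Alternatives were other pseudocounts, filters, scalings and fits, and leaving out each library.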

Additional observations from a re-analysis of the deposited data

How the results depend on the processing

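The 4 changes of the RNAi target siRNAs kept direction and call under every alternative run for them, with adjusted p up to 0.0206 for oma-1 23H-RNAs. The number of features called was 844 and ranged from 647 to 994 when 1 library was left out, with 291 to 462 higher and 356 to 532 lower. With a mean of at least 50 RPM, which leaves 1743 features, it was 508, with 270 higher and 238 lower. With equal miRNA totals 177 were higher, and the median of all features moved from 0.01 to -0.06. With the replicate number as a block, whose numbers do not pair the adult libraries (correlations -0.0921, -0.191 and -0.471), 786 were called, 754 of them among the 844. Calls between rde-4 and rde-1 numbered 1662, and 1151 to 1540 with 1 library left out. In the co-IP set the calls were 103 higher and 289 lower, 95 to 100 and 253 to 295 with 1 library left out, and 988 and 8403 with no filter. For the co-IP, whose numbers do pair, the block left the calls of miR-243-3p and nrfl-1 23H-RNAs in place and moved neither count by over 1.5 times. In adults it ended the calls of miR-37-3p, miR-38-3p, miR-241-5p, the mir-5592 23H-RNA, his-24 and the piRNA 21ur-6626. The shares of the 14 classes moved by less than the spread between replicates under every alternative. The sums by 23H-RNA source did so too, except over rows of at least 10 RPM, where the log2 differences of F43E2.6, the Y57G11C snoRNA hairpin and mir-5592 were 0.93, 1.73 and 0.45, since fewer rows enter. Of 1164 alternatives for named features, 82 lost a call, 10 gained a call and 0 reversed. The filter left 6 rows of the 23H-RNAs and 1 of the ALG class 26G-RNAs, and with no filter 39 and 19 were called, against 4 and 0 with it.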
